A study of Mus musculus with 18 samples.

Results

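Spp1, the gene of the secreted phosphoprotein osteopontin (OPN), lies on mouse chromosome 5 in a run of genes that include Pkd2, which starts 18.4 kb beyond its end. The 9 genes described here, in genome order Aff1, Klhl8, Hsd17b11, Nudt9, Sparcl1, Pkd2, Abcg3, Lrrc8c and Lrrc8d, flank Spp1 on both sides. They were named in advance, with earlier results of these data known, and found by symbol among the 56246 genes of the count table. All 9 passed the filter on low counts, which kept 18910 genes. They were chosen by their raw counts by genotype, with and without UVB, so values by genotype are given for them as a description, without a test. Responses to UVB, which were not the criterion of the choice, were tested, though the counts in both UVB states were known when it was made.

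The libraries were made from polyA RNA of scraped dorsal epidermis of male mice aged 10 weeks. K14-OPN mice carry an OPN transgene under the keratin 14 promoter, which is active in basal keratinocytes, on the OPN-null background. OPN-null mice lack functional Spp1, and wild-type (WT) mice have the intact gene. K14-OPN mice thus also carry the null allele, and both genotypes together are called null-allele carriers below. The irradiated groups received one UVB dose of 180 mJ/cm2 after shaving 48 h earlier, and skin was taken 24 h after the dose: K14-OPN (3 libraries), OPN-null (4) and WT (3). The unexposed groups were K14-OPN (3 libraries), OPN-null (3) and WT (2). Shaving is stated for the irradiated groups only, and its part in the UVB responses was not tested. Libraries are called by group and label number. The labels describe neither the strain, the construction of the null allele, the number of transgenic lines, nor whether each library stands for its own animal. A p-value therefore reflects spread among these libraries, part of which may be technical.

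Between 3696865 and 26068614 reads per library were counted to genes, and the 10 most abundant genes took 12.4 to 84.3% of them. Libraries came in 2 kinds that the labels do not mention. Exactly 1 library in each group held more reads of the small nuclear RNA Rn7sk than of Lars2 (7SK-rich), and the other 12 the reverse (Lars2-rich). Of all genes tested, 41.9% differed between the kinds. The unexposed libraries WT 10, K14-OPN 11 and OPN-null 9 stood apart from their groups in earlier work on these data. Levels are in CPM, a gene's share of the gene counts of its library, scaled by TMM, the trimmed mean of M values. All 8 keratinocyte markers were detected in each group, with a summed level of 5480 to 36500 CPM over the 18 libraries. Markers of dermal fibroblasts, also all 8 detected, summed to 14.5 to 4479 CPM. Hair shaft markers summed to 5.02 to 86280 CPM, with the highest sums in unexposed K14-OPN and WT libraries. In bulk tissue, fewer cells of a type and less RNA per cell cannot be told apart.

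The products of these genes work in different processes. Pkd2 encodes polycystin-2, a calcium-permeable cation channel of the endoplasmic reticulum and the primary cilium that pairs with polycystin-1, and mutations in the human gene cause polycystic kidney disease. Lrrc8c and Lrrc8d encode subunits of the volume-regulated anion channel, which cells open when they swell. Aff1 is a scaffold of the super elongation complex, which releases paused RNA polymerase II, and Klhl8 belongs to the Kelch-like family of adaptors for cullin-3 ubiquitin ligases. Hsd17b11 is a lipid droplet short-chain dehydrogenase, Nudt9 a hydrolase of ADP-ribose, Sparcl1 (hevin) a secreted matrix-associated protein of the SPARC family, and Abcg3 a rodent half-transporter of the ABCG family.

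All 10 genes lie on GRCm38 chromosome 5. Spp1 (ENSMUSG00000029304.14) spans 104435118 to 104441050 and Pkd2 (ENSMUSG00000034462.9) 104459450 to 104505819, both on the plus strand. On the centromere-proximal side Sparcl1 (104079111 to 104113733, minus strand) ends 321 kb before Spp1, followed outward by Nudt9 (104046306 to 104065379, plus), Hsd17b11 (103989762 to 104021919, minus), Klhl8 (103861973 to 103911259, minus) and Aff1 (103692374 to 103855322, plus). Beyond Pkd2 lie Abcg3 (104935057 to 104982718, minus), Lrrc8c (105519388 to 105613018, plus) and Lrrc8d (105699969 to 105832436, plus), the last 1259 kb from Spp1. The segment from Aff1 to Lrrc8d is 2140 kb long and holds 24 protein-coding genes, of which 15 passed the filter. The genes next to Spp1 that encode bone and tooth matrix proteins were nearly silent in the epidermis, with total counts over the 18 libraries of 0 for Dspp, 2 for Dmp1, 3 for Ibsp and 48 for Mepe.

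Upstream sequences of Pkd2 and Spp1 are shown because these 2 genes are neighbours on the same strand. Each is the 250 bases before the RefSeq start (GRCm38.p6, plus strand, 5' to 3'), which lies 7 bases from the GENCODE gene start. Capitals mark matches to TATAAA or CCAAT on either strand.
Pkd2, chr5:104459207-104459456: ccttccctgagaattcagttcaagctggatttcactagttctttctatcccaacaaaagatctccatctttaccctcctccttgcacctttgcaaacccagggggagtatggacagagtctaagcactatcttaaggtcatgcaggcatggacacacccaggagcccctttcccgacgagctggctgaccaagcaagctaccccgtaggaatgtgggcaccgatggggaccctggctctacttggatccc
Spp1, chr5:104434861-104435110: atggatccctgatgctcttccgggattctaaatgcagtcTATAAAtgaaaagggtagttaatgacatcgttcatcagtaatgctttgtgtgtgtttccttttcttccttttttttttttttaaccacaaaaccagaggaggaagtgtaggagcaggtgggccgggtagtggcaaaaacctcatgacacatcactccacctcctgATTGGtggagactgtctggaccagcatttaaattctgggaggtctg
The Spp1 window held TATAAA, 211 to 206 bases before the start, and CCAAT on the opposite strand at 46 to 42 bases. The Pkd2 window held neither, nor GGGCGG or TGACTCA on either strand. Of 32851 RefSeq windows of this length, 12.4% held TATAAA, 33.8% CCAAT, 32.7% GGGCGG and 4.46% TGACTCA. The Pkd2 window was 52.8% G or C with 4 CG pairs, against medians of 52.4% and 6 over all windows. Windows were found for 7 of the 9 genes, not for Klhl8 and Sparcl1. The Lrrc8c window was 78.4% G or C with 35 CG pairs.

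Pkd2 was higher in every library that carried the null allele than in any WT library, with and without UVB and with and without the transgene. After UVB, Pkd2 had 21.2, 15.7 and 15.0 CPM in K14-OPN libraries 1, 2 and 3, 21.3, 16.7, 32.8 and 21.8 CPM in OPN-null libraries 13 to 16, and 1.74, 3.19 and 2.49 CPM in WT libraries 6, 7 and 8. The lowest carrier library was thus well above the highest WT library. Without UVB, Pkd2 had 30.1, 50.6 and 23.8 CPM in K14-OPN libraries 1, 2 and 11, 52.8, 36.3 and 37.5 CPM in OPN-null libraries 8, 9 and 10, and 11.2 and 4.72 CPM in WT libraries 10 and 11. Here too the carriers and WT did not overlap. These values rest on 51 to 758 reads per carrier library and 21 to 95 reads per WT library.

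**Figure D1:**
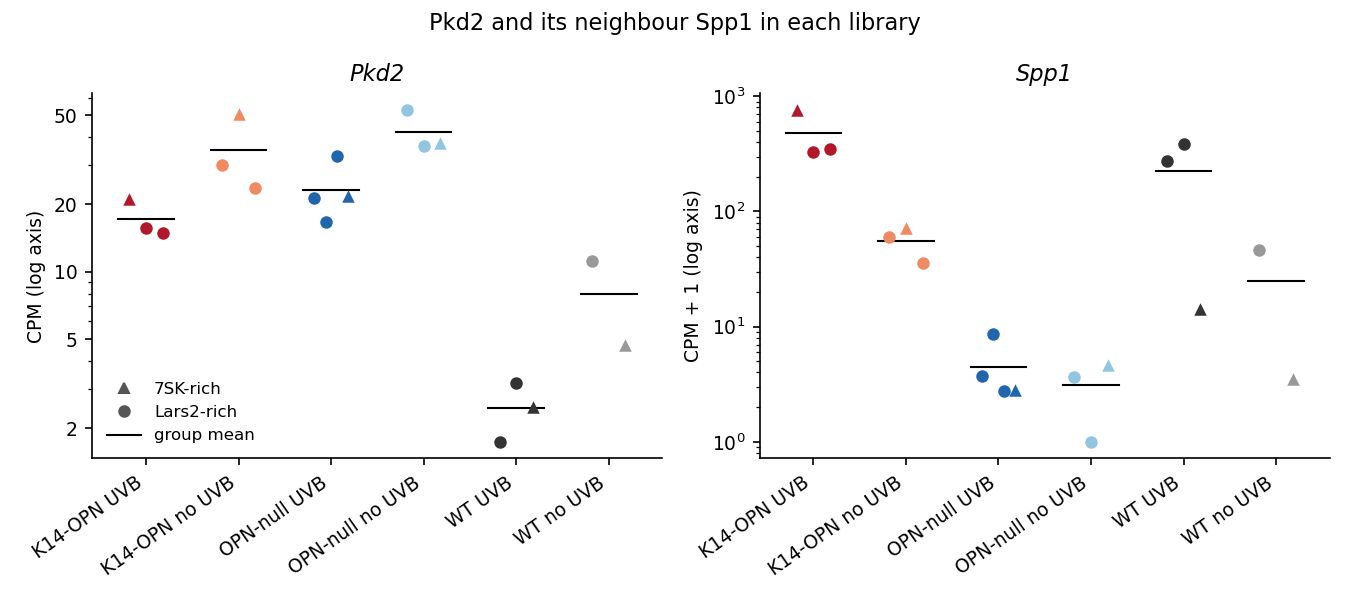
Pkd2 (left, CPM) and Spp1 (right, CPM + 1) in each library, on log axes; triangles are 7SK-rich and circles Lars2-rich libraries, and bars are group means. All 13 carrier libraries lie at 15.0 CPM of Pkd2 or above and all 5 WT libraries at 11.2 or below, while Spp1 is at 0 to 7.57 CPM in OPN-null and up to 758 CPM in K14-OPN.

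From the highest group mean to the lowest, Pkd2 averaged 42.2 ± 9.19 CPM in OPN-null without UVB (SD, n = 3), 34.9 ± 14.0 in K14-OPN without UVB (n = 3), 23.1 ± 6.82 in OPN-null after UVB (n = 4), 17.3 ± 3.39 in K14-OPN after UVB (n = 3), 7.96 ± 4.58 in WT without UVB (n = 2) and 2.47 ± 0.724 in WT after UVB (n = 3). Neighbours among the 4 carrier groups in this order overlapped. K14-OPN after UVB and WT without UVB did not overlap, nor did the 2 WT groups.

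Averaged over both UVB states, the log2 difference of Pkd2 between carriers and WT was 2.66 ± 0.34 (SE), which is 6.33-fold. By genotype and UVB state, OPN-null exceeded WT by 3.23 ± 0.45 after UVB and 2.44 ± 0.53 without, and K14-OPN exceeded WT by 2.81 ± 0.46 after UVB and 2.16 ± 0.52 without. Without UVB, leaving out WT 10 gave 3.14 for OPN-null and 2.88 for K14-OPN, and leaving out WT 11 gave 1.92 and 1.65. The Lars2-rich libraries alone, where WT 10 was the 1 unexposed WT library, gave 1.24 for K14-OPN over WT without UVB. K14-OPN and OPN-null, which share the null allele, differed by -0.42 ± 0.40 after UVB and -0.27 ± 0.43 without, and their libraries overlapped in both states. The comparisons against WT share WT libraries: 3 after UVB, 2 without UVB and all 5 in the averaged contrast.

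Pkd2 was the 1 gene among the 9 with all 13 carrier libraries above all 5 WT libraries, beside 0.00529% of all genes tested, that is, Pkd2 itself. Without WT 11, and in the Lars2-rich libraries alone, the log2 estimates of carriers minus WT were 2.40 and 2.29. A total of 412 genes had a larger absolute log2 fold change. Since this contrast led to the choice of the genes, these values describe where Pkd2 stands and are no test. The separation was also present within library kinds. Among 7SK-rich libraries Pkd2 was at 21.2 to 50.6 CPM in 4 carriers and 2.49 to 4.72 CPM in 2 WT libraries, and among Lars2-rich libraries at 15.0 to 52.8 CPM in 9 carriers and 1.74 to 11.2 CPM in 3 WT libraries. Without the 3 libraries that stood apart the ranges were 15.0 to 52.8 CPM in 11 carriers and 1.74 to 4.72 CPM in 4 WT libraries. After UVB, keratinocyte markers overlapped between the genotypes. Their summed levels were then 19590 to 36500 CPM in K14-OPN, 12200 to 28010 in OPN-null and 12480 to 33370 in WT. Without UVB they were 5480 to 34760 CPM in K14-OPN, 16870 to 26540 in OPN-null and 5910 to 11860 in WT. In that state OPN-null lay above WT without overlap. The part of keratinocytes in the Pkd2 values was not tested.

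Spp1 itself had another pattern across the genotypes. In K14-OPN, which carries the null allele, Spp1 reads can come from the transgene. They were not separated from reads of the chromosome 5 gene. After UVB it had 758, 327 and 347 CPM in K14-OPN libraries 1, 2 and 3, 2.71, 7.57, 1.76 and 1.81 CPM in OPN-null libraries 13 to 16, and 272, 385 and 13.2 CPM in WT libraries 6, 7 and 8. Without UVB it had 58.7, 70.4 and 34.5 CPM in K14-OPN, 2.64, 0 and 3.66 CPM in OPN-null, and 45.2 and 2.53 CPM in WT libraries 10 and 11. K14-OPN libraries lay above OPN-null libraries in both states, whereas WT libraries overlapped with K14-OPN and, without UVB, with OPN-null. Pkd2 was higher in K14-OPN and OPN-null than in WT. The null allele and any chromosome 5 sequence or strain background that came with it are present in all 13 carriers and in no WT library, so they cannot be told apart in this design.

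The other 8 genes did not separate carriers from WT over all 18 libraries. Among the 7SK-rich libraries alone, Lrrc8d was at 12.8 to 17.8 CPM in 4 carriers and 8.55 to 8.90 CPM in 2 WT libraries, without overlap. Abcg3 was at 0.354 to 0.812 CPM in these carriers and 0 to 0.348 CPM in WT. The lowest carrier library of Abcg3 held 5 reads and the highest WT library 7. How many of all genes separate in this way was not counted, and both genes overlapped among the Lars2-rich libraries. Over all libraries, the log2 differences of carriers minus WT were 1.57 ± 0.77 for Hsd17b11, 0.65 ± 0.40 for Lrrc8d, 0.51 ± 0.67 for Lrrc8c, 0.35 ± 0.93 for Sparcl1, 0.16 ± 0.45 for Aff1, 0.03 ± 0.35 for Nudt9 and -0.45 ± 0.33 for Klhl8. No such difference is given for Abcg3, which had 0 reads in WT after UVB, and its reads are given below. The median of all genes tested was -0.09. Leaving out WT 11 gave 1.07 for Aff1 and 1.18 for Sparcl1, and leaving out WT 10 gave 1.72 for Lrrc8c. The level of each gene by library is shown in the plot of the 9 genes.

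**Figure D2:**
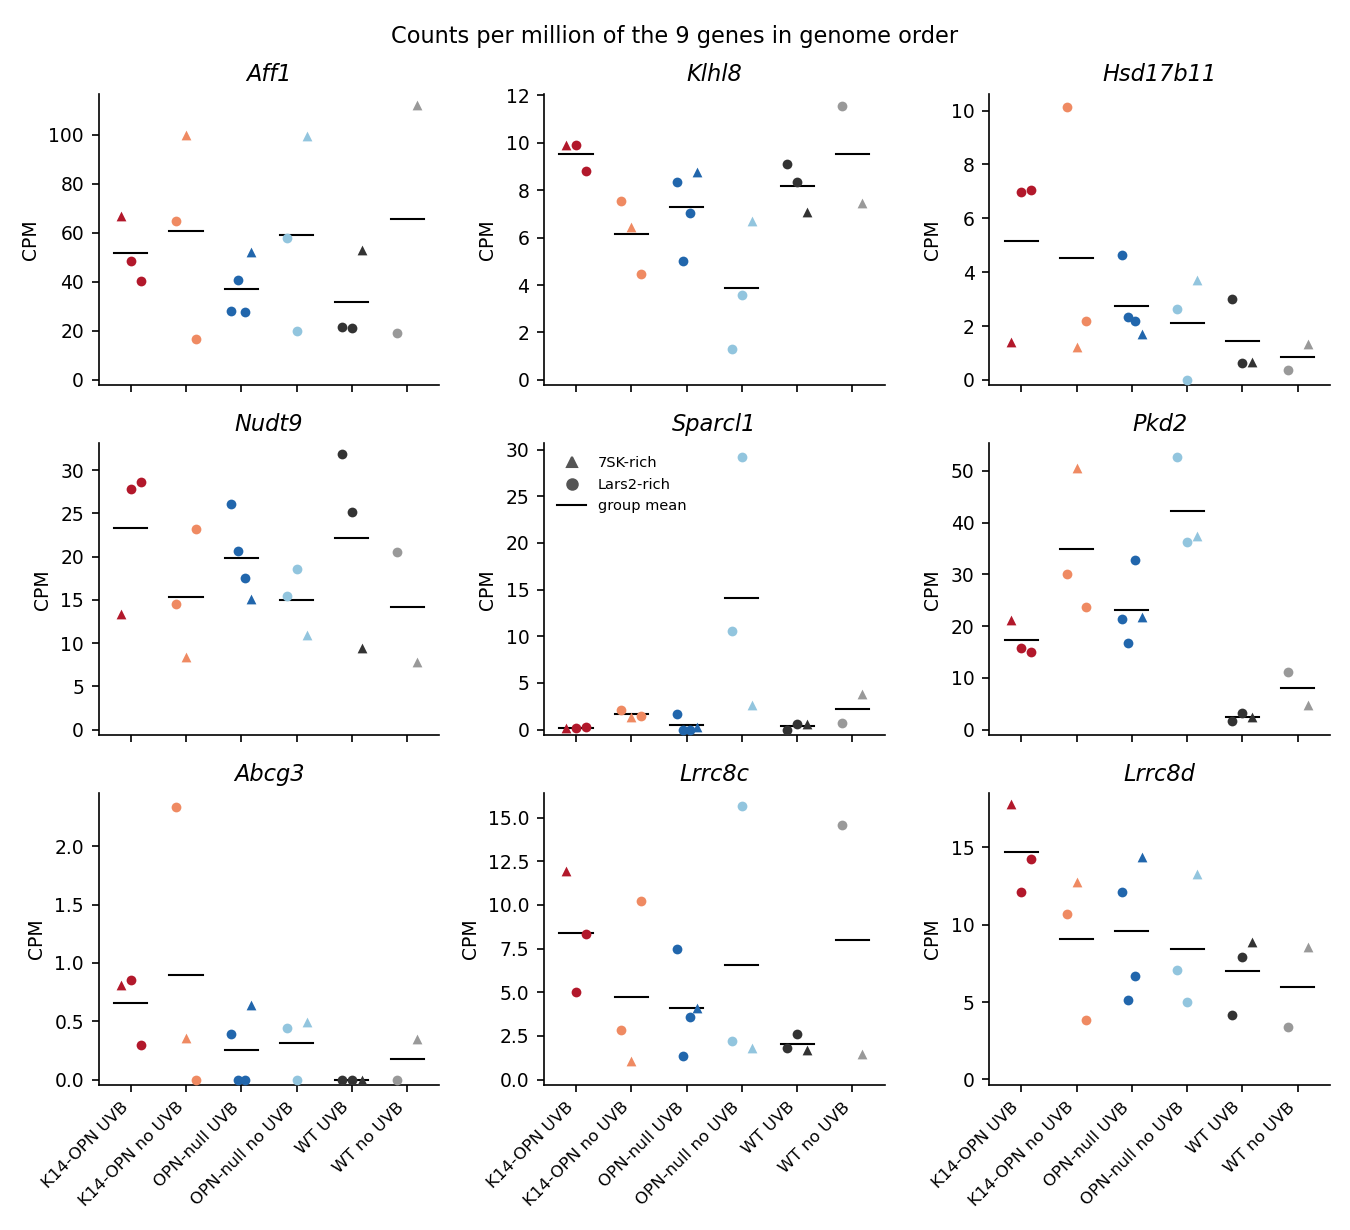
CPM of the 9 genes in genome order in each library, by group; triangles are 7SK-rich and circles Lars2-rich libraries, and bars are group means. Pkd2 is the 1 gene of the 9 in which the carrier groups stay clear of WT, and Aff1 is highest in the 7SK-rich library of every group.

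Abcg3 was close to the detection limit. After UVB it had 16, 16 and 11 reads in K14-OPN libraries 1, 2 and 3, 4, 0, 0 and 13 reads in OPN-null libraries 13 to 16, and 0 reads in all 3 WT libraries. Without UVB it had 9, 5 and 0 reads in K14-OPN, 1, 0 and 10 reads in OPN-null, and 0 and 7 reads in WT libraries 10 and 11. Counts were thus found in 9 of 13 carrier libraries and 1 of 5 WT libraries. Summed over libraries, 85 reads in carriers and 7 in WT, all from WT 11, gave a ratio of CPM of 4.28. This ratio is a description, and both carriers and WT held libraries at 0. After UVB, the summed level was at least 6.32-fold higher in carriers, computed against a floor of 3 counts over the WT group. The floor covers counting error only, not the spread among libraries.

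Hsd17b11 was at 0 to 10.1 CPM in carriers (median 2.35) and 0.373 to 3.01 CPM in WT (median 0.670). After UVB it had 1.42, 6.97 and 7.06 CPM in K14-OPN, 4.65, 2.35, 2.20 and 1.72 CPM in OPN-null, and 3.01, 0.607 and 0.670 CPM in WT. The highest WT library was above 4 of the 7 carrier libraries. Without UVB, Hsd17b11 had 10.1, 1.20 and 2.19 CPM in K14-OPN, 2.64, 0 and 3.71 CPM in OPN-null, and 0.373 and 1.34 CPM in WT.

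Of the channel subunits, Lrrc8d had 17.8, 12.1 and 14.2 CPM in K14-OPN, 12.1, 5.11, 6.68 and 14.4 CPM in OPN-null and 4.19, 7.90 and 8.90 CPM in WT after UVB. In this state the OPN-null libraries overlapped with WT. The K14-OPN libraries lay above the WT libraries, 3 against 3, and how many of all genes do so was not counted. Without UVB Lrrc8d had 10.7, 12.8 and 3.86 CPM in K14-OPN, 7.04, 4.99 and 13.3 CPM in OPN-null, and 3.36 and 8.55 CPM in WT, and all genotypes overlapped. Lrrc8c after UVB had 11.9, 4.999 and 8.34 CPM in K14-OPN, 7.46, 1.33, 3.60 and 4.07 CPM in OPN-null and 1.82, 2.58 and 1.68 CPM in WT. Without UVB Lrrc8c was at 1.06 to 15.7 CPM in carriers and 1.44 to 14.6 CPM in WT, with the highest values in K14-OPN 11 (10.2 CPM), OPN-null 9 (15.7 CPM) and WT 10 (14.6 CPM), the 3 libraries that stood apart.

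Aff1, Nudt9 and Klhl8 overlapped between the genotypes. Aff1 was at 16.8 to 100.1 CPM in carriers (median 48.4) and 19.0 to 112.1 CPM in WT (median 21.6). Nudt9 was at 8.43 to 28.7 CPM in carriers (median 17.6) and 7.85 to 31.9 CPM in WT (median 20.5). Klhl8 was at 1.32 to 9.89 CPM in carriers (median 7.03) and 7.08 to 11.6 CPM in WT (median 8.35). The lowest Klhl8 values were in unexposed OPN-null libraries 8 and 9, with 3 and 5 reads, while unexposed OPN-null 10 had 136 reads and 6.72 CPM. An antisense transcript, Gm43545, covers 35.7% of the exon bases of Nudt9, and since no source used here states whether counting used strand, reads of the 2 cannot be told apart.

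Library kind moved 3 of the 9 genes. Between 7SK-rich and Lars2-rich libraries, Aff1 was higher by 1.24 ± 0.29 on the log2 scale (edgeR adjusted p = 0.00274), Lrrc8d was higher by 0.83 ± 0.28 (adjusted p = 0.0237) and Nudt9 fell by 1.02 ± 0.21 (adjusted p = 0.00103), in a model with the 6 groups and library kind. Pkd2 did not pass (0.06 ± 0.25, adjusted p = 0.871). The share of 3 in 9 is near the 41.9% of all genes that differed.

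Per kilobase of exon, Nudt9 had the highest median level of the 9 genes over the 18 libraries, at 7.54 CPM per kb, followed by Aff1 at 4.71, Klhl8 at 2.15, Pkd2 at 2.09, Lrrc8d at 0.694, Hsd17b11 at 0.672, Lrrc8c at 0.422, Sparcl1 at 0.233 and Abcg3 at 0.0912. Spp1 had a median of 14.5 CPM per kb and a range of 0 to 460.2. The ranges of adjacent genes in this order overlapped over the libraries. Pkd2 spanned 0.171 to 5.19 CPM per kb.

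None of the 9 genes was called in the response to UVB in any genotype. By edgeR's quasi-likelihood test with Benjamini-Hochberg adjustment over all genes, 0 of 9 were called in K14-OPN, 0 of 9 in OPN-null and 0 of 9 in WT, where 1.06%, 3.41% and 0.0952% of all genes were called. At an unadjusted p below 0.05 there were 1, 2 and 1 of the 9, against 15.6%, 21.0% and 13.0% of all genes. DESeq2 called 0 in K14-OPN, 1 in OPN-null (Sparcl1) and 1 in WT (Pkd2), where it called 7.25%, 12.4% and 4.67% of all genes. With library kind in the model, edgeR called 0, 1 (Sparcl1) and 0 of the 9, beside 7.71%, 13.7% and 3.73% of all genes. The median log2 response of the 9 genes was 0.22 in K14-OPN, -0.42 in OPN-null and -1.05 in WT, against medians of all genes of -0.18, 0.02 and -0.15.

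**Figure D3:**
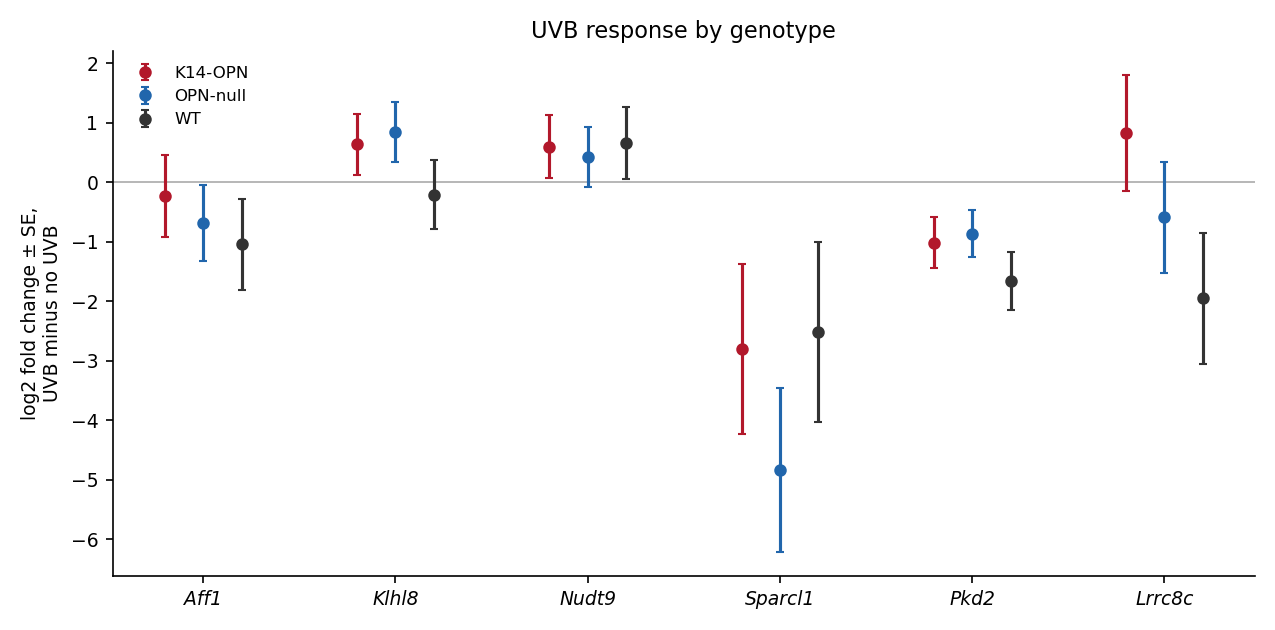
Log2 fold change of UVB minus no UVB (points) with its standard error (bars) for 6 of the 9 genes, by genotype. Pkd2 and Sparcl1 have negative values in all 3 genotypes, and the standard errors of Aff1, Klhl8, Nudt9 and Lrrc8c are large beside their values.

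Pkd2 had negative estimates in all 3 genotypes, and none passed the test. The log2 response was -1.01 ± 0.43 in K14-OPN (edgeR adjusted p = 0.252), -0.87 ± 0.39 in OPN-null (adjusted p = 0.222) and -1.66 ± 0.49 in WT (adjusted p = 0.138). In K14-OPN all 3 irradiated libraries lay below the 3 unexposed ones, in OPN-null all 4 below the 3, and in WT all 3 below the 2. With 2 to 4 libraries a group such an order is no test, and its share among all genes was not counted. In WT, DESeq2 gave -1.69 with an adjusted p of 0.0250, and without WT 10 the edgeR value was -0.87. Dermal fibroblast markers had summed levels of 88.0 to 198 CPM after UVB and 535 to 3232 CPM without in K14-OPN, 14.5 to 570 and 3626 to 4479 CPM in OPN-null, and 72.5 to 326 and 154 to 2886 CPM in WT, where the ranges overlapped. Of 8 tested, 0 were called in K14-OPN, 3 fell in OPN-null and 0 were called in WT. Their part in the Pkd2 values was not tested.

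Sparcl1, which blood vessel cells and fibroblasts are known to express, had the lowest UVB estimates of the 6 genes whose response is given. After UVB it had 0.203, 0.160 and 0.300 CPM in K14-OPN, 1.65, 0, 0 and 0.294 CPM in OPN-null and 0, 0.607 and 0.622 CPM in WT. Without UVB it had 2.08, 1.35 and 1.46 CPM in K14-OPN, 10.6, 29.2 and 2.62 CPM in OPN-null and 0.747 and 3.78 CPM in WT. Within each genotype the irradiated libraries lay below all unexposed ones, on few reads. In WT the irradiated libraries 6, 7 and 8 held 0, 4 and 13 reads, and the unexposed WT 10 held 2. The unexposed OPN-null 9 held 41 reads, and its 10 most abundant genes took 84.3% of its gene counts. How many of all genes separate by UVB in this way was not counted. The log2 response was -4.83 ± 1.38 in OPN-null (edgeR adjusted p = 0.0626), -2.80 ± 1.43 in K14-OPN (adjusted p = 0.370) and -2.51 ± 1.52 in WT (adjusted p = 0.525). Without the unexposed WT 11 the WT value was -0.85.

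In OPN-null, the Sparcl1 response passed the threshold in other fits. It was -4.80 with library kind in the model (edgeR adjusted p = 0.0224), -5.04 in DESeq2 (adjusted p = 0.000809), -4.83 without the filter on low counts (adjusted p = 0.00606) and -6.81 without OPN-null 13 (adjusted p = 0.0349), the irradiated library with the highest level. Without the unexposed OPN-null 9, the library with the highest level, it was -3.76 (adjusted p = 0.221). Of the fibroblast markers, 3 of 8 fell in OPN-null in the same test (Col1a1, Col5a1 and Fbn1), with a list median of -3.55, and all 8 were detected. Endothelial and mural markers summed to 5.45 to 22.4 CPM after UVB and 9.97 to 25.9 CPM without in OPN-null, with 0 of 8 tested genes called and Tek at 0 in the irradiated libraries. With library kind in the model, 5 of 8 fibroblast markers fell in OPN-null, beside 13.7% of all genes called. Of the endothelial and mural markers, Vwf fell there (-3.04 ± 0.92, edgeR adjusted p = 0.0378, named after its values were seen). The median log2 response of the 8 tested on that list was -0.15 in the model of the 6 groups and -0.25 with library kind. The part of these cells in the Sparcl1 values was not tested.

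Klhl8, Nudt9 and Aff1 had responses within 2 standard errors of 0 in each genotype. Klhl8 was estimated at 0.63 ± 0.52 in K14-OPN, 0.85 ± 0.51 in OPN-null and -0.21 ± 0.58 in WT, with adjusted p of 0.641, 0.352 and 0.930 by edgeR. Nudt9 had 0.60 ± 0.53, 0.42 ± 0.50 and 0.66 ± 0.60, and Aff1 -0.23 ± 0.69, -0.68 ± 0.64 and -1.05 ± 0.76, in the same order of genotypes. Lrrc8c had 0.83 ± 0.98 in K14-OPN, -0.59 ± 0.94 in OPN-null and -1.95 ± 1.10 in WT. Without WT 10 the WT value of Lrrc8c was 0.55, and without OPN-null 9 its OPN-null value was 1.08. Without K14-OPN 11 its K14-OPN value was 2.14. The WT value of Nudt9 was 1.58 without WT 10 and 0.12 without WT 11.

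The UVB response of the 9 genes was not found to differ between genotypes. By interaction contrasts of the same edgeR model, 0 of 9 were called between K14-OPN and WT, between OPN-null and WT, and between K14-OPN and OPN-null, as were 0.0% of all genes in each. At an unadjusted p below 0.05, 0 of the 9 were found in each, beside 0.598%, 2.58% and 3.86% of all genes. DESeq2 also called 0 of the 9, beside 0.0317%, 0.0212% and 0.0106% of all genes. For Pkd2 the differences of the log2 response were 0.65 ± 0.65 for K14-OPN minus WT, 0.79 ± 0.63 for OPN-null minus WT and -0.15 ± 0.58 for K14-OPN minus OPN-null. Their standard errors of 0.58 to 0.65 stand beside responses of -0.87 to -1.66.

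The wider neighbourhood was examined by position alone. Within 5 Mb of Spp1, 248 genes were annotated and 102 tested, 92 of them neither among the 9 genes nor Spp1. None of the 92 was called in carriers minus WT by edgeR, beside 0.00529% of all genes. By DESeq2, 2 were called, beside 0.159% of all genes. At an unadjusted p below 0.05 there were 4 (4.35%), against 3.12% of all genes. Of the 92, 37 had a positive and 55 a negative estimate, with a median of -0.22 against -0.09 for all genes, and a median absolute value of 0.35 against 0.33. In none of the 92 did the 13 carrier and 5 WT libraries separate.

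**Figure D4:**
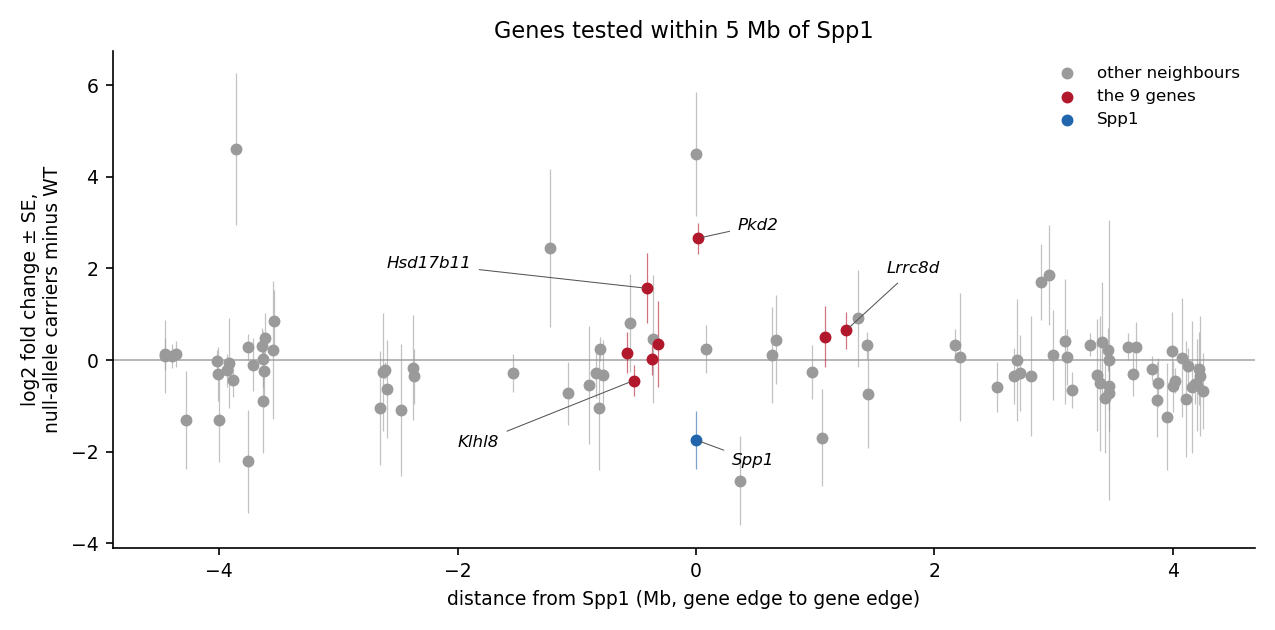
Log2 fold change (with its standard error) of null-allele carriers minus WT against the distance from Spp1 in Mb, for 99 of the 102 genes tested within 5 Mb. The 3 genes with no count in a group, Abcg3 among them, are not drawn. Pkd2, at 2.66, has a small standard error among the genes far from 0, and the other neighbours scatter around 0 on both sides.

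The 4 genes at an unadjusted p below 0.05 were named after their values were seen. Plac8 (4.61 ± 1.65) and Gm42793 (4.50 ± 1.36) were higher in carriers on the log2 scale, and Zfp951 (-2.63 ± 0.97) and Cplx1, which had a group with no count, were lower; each had an edgeR adjusted p of 1.00. Plac8 and Gm42793 were the 2 called by DESeq2. Gm42793, annotated with the biotype TEC, is transcribed in the direction of Spp1 and shares 309 exon bases with it, 18.8% of the exon bases of Spp1, so that reads there can belong to either. After UVB it had 8.93, 4.41 and 2.26 CPM in K14-OPN, 10.6, 12.7, 2.55 and 2.21 CPM in OPN-null, and 0, 1.06 and 0.526 CPM in WT, without overlap between carriers and WT. Without UVB it was at 0 to 15.6 CPM in 6 carriers and 0 to 0.0497 CPM in 2 WT libraries, and these overlapped. How many of all genes separate carriers from WT after UVB alone was not counted. Also named after their values were seen, the noncoding D930016D06Rik, 0.0847 Mb from Spp1, had 18.4 to 215 CPM in carriers and 24.3 to 115.7 CPM in WT, and Lrrc8b, which lies between Abcg3 and Lrrc8c, had 0 to 26.6 CPM in carriers and 5.23 to 28.9 CPM in WT. Both overlapped.

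Genes whose level followed that of Pkd2 most closely over the 18 libraries were found by the correlation of log2 CPM, centred on each library kind, over 11162 genes with a mean log2 CPM of at least 1. The 4 highest were Gm11592 (r = 0.773, Spearman rho = 0.820), Gm43417 (r = 0.752, rho = 0.749), Acp2, a lysosomal acid phosphatase (r = 0.736, rho = 0.695), and Ankrd26 (r = 0.731, rho = 0.839). The points share library depth and composition, and no p is given. Without the 2 libraries lowest in Pkd2, WT UVB 6 and 8, r was 0.615 to 0.748 for the 4. In each, carriers and WT overlapped. Gm11592 is on chromosome 11, Acp2 on 2, Ankrd26 on 6 and Gm43417 on 5. Of the other neighbours, Aff1 had r = 0.366, Lrrc8d 0.310, Lrrc8c 0.227, Hsd17b11 0.147, Nudt9 -0.335 and Klhl8 -0.440, and Spp1 had -0.366. Sparcl1 and Abcg3 were below the level required.

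Genes that work with the products of the 9 were examined as lists. Of 22 polycystin and cilium genes, 18 were tested and 0 were called in the UVB response of any genotype, with medians of -0.67 in K14-OPN, -0.30 in OPN-null and -0.74 in WT. With library kind in the model, 3 fell in K14-OPN, 4 in OPN-null and 0 in WT, where 7.71%, 13.7% and 3.73% of all genes were called in that model. One of the 4 was Pkd1, which encodes polycystin-1, the partner of polycystin-2 (-2.73 ± 0.59, edgeR adjusted p = 0.00708, named after its values were seen). Pkd1 was 11.8-fold higher in 7SK-rich than in Lars2-rich libraries. Its log2 difference between carriers and WT was -0.46 ± 0.96.

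Of the 5 volume-regulated anion channel genes, all were tested and 0 were called in the UVB response of any genotype. Of all genes, 1.06% were called in K14-OPN, 3.41% in OPN-null and 0.0952% in WT. With library kind in the model, Lrrc8e fell in K14-OPN (-1.33 ± 0.31, edgeR adjusted p = 0.0167) and OPN-null (-0.88 ± 0.28, adjusted p = 0.0492), and Lrrc8a, the subunit that every such channel needs, rose in OPN-null (1.17 ± 0.32, adjusted p = 0.0233). Both were named after their values were seen. The model with library kind called 7.71% of all genes in K14-OPN, 13.7% in OPN-null and 3.73% in WT. Lrrc8e averaged 14.6 ± 2.90 CPM after UVB and 39.1 ± 14.3 without in K14-OPN (SD, n = 3 each). In OPN-null it was at 11.4 to 39.5 CPM after UVB and 26.4 to 83.3 CPM without, and these overlapped. Neither Lrrc8c nor Lrrc8d was called in that model.

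Of 12 super elongation complex genes tested, Ccnt1, which encodes cyclin T1, the activator of the kinase Cdk9, rose in OPN-null (1.46 ± 0.37, edgeR adjusted p = 0.0408). It was the 1 call on this list in the model of the 6 groups. With library kind as a term, the model called 13.7% of all genes in OPN-null, 7.71% in K14-OPN and 3.73% in WT. Of this list, 3 rose and 2 fell in OPN-null, 1 rose in K14-OPN and 1 rose in WT. In OPN-null these were Ccnt1, Ell2 and Aff4, which rose, and Mllt3 and Aff3, which fell, all but Ccnt1 named after their values were seen. Aff4, a relative of Aff1 and a scaffold of the same complex, rose in OPN-null by 0.80 ± 0.25 (adjusted p = 0.0409) and in K14-OPN by 1.01 ± 0.26 (adjusted p = 0.0278), and Ccnt1 rose in WT by 1.68 ± 0.36 (adjusted p = 0.0190) in that model.

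Of 6 SPARC family genes tested, Smoc2, a secreted calcium-binding matrix protein, fell in K14-OPN (-4.62 ± 0.79, edgeR adjusted p = 0.0139) and OPN-null (-4.10 ± 0.69, adjusted p = 0.00664), and 0 were called in WT. In the model with library kind, 4 fell in OPN-null (Smoc2, Sparc, Sparcl1 and Spock2), 1 in K14-OPN (Smoc2) and 0 in WT. These counts stand beside 13.7%, 7.71% and 3.73% of all genes called. Sparc and Spock2 were named after their values were seen.

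Of 10 lipid droplet and steroid dehydrogenase genes tested, Hsd17b14 fell in K14-OPN (-4.86 ± 0.96, edgeR adjusted p = 0.0252) and Hsd17b4, a peroxisomal enzyme of fatty acid oxidation, fell in OPN-null (-1.51 ± 0.38, adjusted p = 0.0364). When library kind was modelled, Hsd17b14 also fell in OPN-null (-2.95 ± 0.70, adjusted p = 0.0117), and Hsd17b12, named after its values were seen, rose in K14-OPN (0.87 ± 0.25, adjusted p = 0.0416). Of 4 ABCG transporter genes tested, 0 were called in the model of the 6 groups. In the model with library kind, Abcg2, a drug and urate exporter named after its values were seen, rose in K14-OPN (1.59 ± 0.43, adjusted p = 0.0335), OPN-null (1.77 ± 0.42, adjusted p = 0.0121) and WT (2.57 ± 0.53, adjusted p = 0.0162). Of the bone and tooth matrix genes Spp1 alone was tested, and it was not called in either model. The share called of all genes in the model of the 6 groups was 1.06% in K14-OPN, 3.41% in OPN-null and 0.0952% in WT. With library kind in the model it was 7.71%, 13.7% and 3.73%.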

How the data were processed

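The authors deposited raw counts per gene for 18 epidermal libraries in a single table. HTSeq 0.11.3, STAR 2.7.5a, Trim Galore 0.6.5 and bcl2fastq 2.18.0.12 are named, with no roles, in the submitters' processing notes, as is GRCm38. Annotation release, counting mode and strand: not given in the sources used here. Of 56246 genes, 55144 matched a GENCODE M21 symbol by identifier without version. The 5 summary lines that name no gene did not enter library sizes or tests. Per library they held 20.8 to 50.4% (no gene), 2.51 to 13.9% (ambiguous) and 12.1 to 29.3% (several alignments) of all counts listed.

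The filter was filterByExpr with a minimum count of 10 and total of 15. Libraries were scaled by TMM and fitted in R 4.3.3 with edgeR 4.0.16 in 1 quasi-likelihood model of the 6 groups over all 18 libraries, which share 1 estimate of spread per gene. Tests were two-sided, with Benjamini-Hochberg adjustment over 18910 genes and a threshold of 0.05. The prior count was 0.125 for log2 fold changes and 2 for log2 CPM. The biological coefficient of variation was 0.816, and 0.595 with library kind in the model. Alternatives were DESeq2 1.42.0, RLE scaling, no filter, the compared groups only, library kind as a term, Lars2-rich libraries only, leaving out 3 libraries that stood apart, blocking on replicate number, and omission of single libraries. Every pair of replicate libraries differed by more than sampling noise.

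The 9 genes, the gene lists, the library kinds, the 3 libraries and the alternatives were chosen with earlier results of these data known. Named genes are the 9 and Spp1, called neighbours within 5 Mb, the 4 genes most like Pkd2, and called genes of the lists (up to 4 each). Others are said to be named after their values were seen. Upstream sequences are RefSeq's, GRCm38.p6. Fewer than 100 reads per library lie behind Pkd2 in WT.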

Additional observations from a re-analysis of the deposited data

How the results depend on the processing

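The log2 difference of Pkd2 between null-allele carriers and WT, 2.66, was 2.29 to 3.07 over 6 other fits (library kind as a term, RLE scaling, no filter, DESeq2, Lars2-rich libraries only, and without the 3 libraries that stood apart) and 2.40 to 3.02 when each library was left out in turn, the lowest without WT no UVB 11 and the highest without WT no UVB 10. A fit of the compared groups only could not differ for it, because the contrast uses all groups. The count of the 9 genes called in the UVB response of OPN-null, 0 in the reported fit, was 1 (Sparcl1) with library kind as a term, without the filter and by DESeq2, and 0 to 1 over fits without 1 library. That in WT, also 0, was 1 (Pkd2) by DESeq2. The count of other neighbours called in carriers minus WT, 0, was 2 without the filter and by DESeq2. Without 1 library it was 0 to 0, as were the counts in K14-OPN and WT and the count of responses that differed between genotypes.

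Some UVB estimates that passed no test changed sign, and the cause was not tested. With the Lars2-rich libraries only, Aff1 was 0.17 in K14-OPN and 0.16 in WT. Without the 3 libraries that stood apart, Klhl8 was 0.10 in WT, and Lrrc8c was 1.04 in OPN-null and 0.44 in WT. Over fits without 1 library, Aff1 was -0.68 to 0.34 in K14-OPN and -1.74 to 0.76 in WT, Klhl8 -0.49 to 0.21 in WT, and Lrrc8c -1.10 to 1.08 in OPN-null and -2.84 to 0.55 in WT. With 2 to 4 libraries a group, Pkd2 in WT rests on 21 to 95 reads per library and Abcg3 on 0 to 7.

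Numbers 1 and 2 occur in both K14-OPN groups, and the labels do not say what a number marks. Deviations of same-numbered libraries from their group means correlated across genes at -0.451 and -0.578. In each of these pairs 1 library was 7SK-rich and the other Lars2-rich. K14-OPN UVB 1 and no UVB 2, both 7SK-rich, correlated at 0.636. The correlations therefore cannot show whether a number marks a pair, and the libraries were not paired in the main model. With a replicate block for those libraries, 0 of the 9 genes were called in K14-OPN, as without it, and the Aff1 response there was 0.08.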
